A study of Mus musculus with 9 samples.

Results

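The transcripts described here are the CIS/SOCS genes (Cish and Socs1 to Socs7) and the PIM kinase genes Pim1 and Pim2 in bone marrow-derived mast cells (BMMCs). They were taken by gene symbol and make up 10 of the 47643 gene IDs in the deposited count table. RNA was sequenced from 3 groups of 3 libraries each. Control cells carry no treatment in the labels, BSA cells are labelled IgE+BSA (IgE with the antigen DNP-BSA, which cross-links the high-affinity IgE receptor), and BSA + luteolin cells are labelled IgE+BSA+Luteolin, with the plant flavone luteolin at 10 μM for 24 h. All cells were grown from bone marrow of C57BL/6 mice in medium conditioned by WEHI-3 cells, a source of IL-3. The study describes luteolin for these groups as a pretreatment in one place and as given after DNP-BSA in another, so its order is not settled here. The study describes Control as untreated, with no separate statement on whether these cells carried IgE. The age of the mice and the time of stimulation are not given for these libraries in the sources used here. No group received luteolin without stimulation. Nothing in the labels ties the libraries to separate cultures or animals, so p-values measure only the spread between these libraries, which may be technical.

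Cytokine receptors that use JAK kinases phosphorylate STAT factors, and STAT5 carries much of the signal of IL-3 and related cytokines in mast cells. STAT factors switch on their own brakes. CIS, encoded by Cish, is a classical STAT5 target that binds receptor chains through its SH2 domain. SOCS1 and SOCS3 can also inhibit JAK kinases directly. All 8 CIS/SOCS proteins end in a SOCS box, which recruits Elongin B and C and a cullin ubiquitin ligase to the bound protein. PIM1 and PIM2 are serine/threonine kinases without a regulatory domain, so their activity follows their amount, and they promote survival and growth below STAT5.

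The promoter windows of Cish and Socs3 are shown because these genes rose with stimulation and fell with luteolin, as reported below, and because their windows hold a STAT palindrome. Each is the RefSeq window (GRCm38.p6) from 250 bases before the annotated start to 50 bases after it, 5′ to 3′ on the gene's strand, with matches to TTCNNNGAA in capitals. The Cish window lies at chr9:107296409-107296708 on the plus strand and the Socs3 window at chr11:117969317-117969616 on the minus strand.
Cish: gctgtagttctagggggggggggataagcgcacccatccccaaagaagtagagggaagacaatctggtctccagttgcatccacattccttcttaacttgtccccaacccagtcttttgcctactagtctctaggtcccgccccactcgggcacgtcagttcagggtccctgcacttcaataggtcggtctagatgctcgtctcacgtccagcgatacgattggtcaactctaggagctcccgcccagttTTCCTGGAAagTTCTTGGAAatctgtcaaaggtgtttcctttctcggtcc
Socs3: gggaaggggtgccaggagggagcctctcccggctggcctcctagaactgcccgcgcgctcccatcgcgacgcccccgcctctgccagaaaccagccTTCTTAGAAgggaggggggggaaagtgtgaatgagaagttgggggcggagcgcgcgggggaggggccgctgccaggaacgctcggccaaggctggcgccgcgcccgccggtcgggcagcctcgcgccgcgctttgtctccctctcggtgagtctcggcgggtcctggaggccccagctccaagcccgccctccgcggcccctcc
Of the 10 genes, 6 had a window in the table (Pim1 had 2), and Socs2, Socs5, Socs6 and Socs7 had none. Cish held 2 matches, TTCCTGGAA beginning on the annotated start base and TTCTTGGAA beginning 11 bases after it, and Socs3 held 1, TTCTTAGAA, whose first base lies at position -154 relative to its start. The windows of Socs1, Socs4, Pim1 and Pim2 held none. TTCNNNGAA reads the same on both strands, and 8.3% of the 32851 mouse windows in the table held it at least once, while 0.457% held it 2 or more times. The letters TTC and GAA with a spacer of 4 bases were found in 6.95% of all windows and in none of these 7. The core of the interferon-response element, in 3.44% of all windows on either strand, had 2 overlapping matches in Socs1, at positions -83 and -77. A match describes these letters and says nothing of binding.

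The libraries held 20434341, 9515004 and 22465786 counts in Control and 20125034 to 24605689 in the other 6, so that 3 counts corresponded to 0.122 to 0.315 CPM (counts scaled to a common library total), a floor that covers counting error only. All 11 mast cell markers exceeded 1 CPM in each group. Summed markers reached at most 0.4 CPM for T cells, 0.775 CPM for B cells and 0.678 CPM for dendritic cells, with Cd3e and Ms4a1 at 0 in every library and other members of these lists, such as Cd3g and Cd79a, at a few counts. Across libraries the basophil markers summed to 1450 to 1880 CPM, those of macrophages to 258 to 325 CPM, those of eosinophils to 24.9 to 55.2 CPM and those of megakaryocytes or erythroid cells to 1810 to 2290 CPM. Itga2b made up most of the last sum, and other sums hide splits between markers. The basophil marker Mcpt8 had 432, 21.8 and 18.7 CPM in Control replicates 1, 2 and 3 and 292 to 368 CPM in the other groups. Prg2, an eosinophil marker, had 31.5, 0.1 and 0 CPM in Control and 13.6 to 23.0 CPM in the other groups. Cd200r3, Siglecf and Ccr3 of these lists were instead highest in Control replicate 2. Control replicate 1 stood apart. Its root-mean-square log2 distance to the mean of the other libraries of its group was 0.72, against 0.207 to 0.42 for the other 8. Its 6 neutrophil markers summed to 200 CPM, against 19.5 to 20 in the other Control libraries, 135 to 147 in BSA and 158 to 185 in BSA + luteolin. Its mast cell markers summed to 84000 CPM, against 54800 to 55000 in the other Control libraries, 58800 to 65800 in BSA and 70800 to 82000 in BSA + luteolin. Cpa3, Tpsb2 and Cma1 made up most of these sums. Of the 11 markers, Kit, Ms4a2, Gata2 and Mitf were lower in Control replicate 1 than in the other Control libraries, and the rest were higher. The part of these markers in the results was not tested. In bulk RNA, fewer cells of a type and less RNA per cell cannot be told apart. With library size alone in place of TMM scaling, the median log2 fold change of all genes moved from 0.01 to 0.13 between BSA + luteolin and BSA and from 0.02 to -0.15 between BSA and Control. The share of calls that were lower moved from 55.4% to 31.4% in the first comparison and from 28.7% to 62.7% in the second, and with upper-quartile factors to 38.2% and 47.6%.

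Per kilobase of exon, Pim1 was the most abundant of the 10 transcripts in every group and Socs6 the least. In BSA the order of mean levels, in CPM per kb, was Pim1 at 251.9 ± 9.92 (SD, n = 3), Cish at 99.5 ± 4.53, Pim2 at 36.6 ± 1.08, Socs3 at 21.0 ± 0.87, Socs2 at 15.1 ± 1.54, Socs1 at 7.15 ± 0.53, Socs4 at 5.40 ± 0.79, Socs5 at 3.78 ± 0.35, Socs7 at 3.21 ± 0.18 and Socs6 at 1.27 ± 0.13. Of the neighbours in this order only the libraries of Socs5 and Socs7 overlapped. In BSA + luteolin, Cish at 48.5 ± 4.28 CPM per kb (SD, n = 3) overlapped Pim2 at 46.4 ± 2.15, and Socs3 at 5.78 ± 0.55 stood below Socs1 at 7.23 ± 0.31. In Control, Cish overlapped Pim2, and from Socs2 down to Socs5 each gene overlapped the next. The 8 CIS/SOCS genes summed to 97.5 ± 12.1 CPM per kb (SD, n = 3) in Control, 156 ± 5.59 in BSA and 84.9 ± 6.4 in BSA + luteolin. Cish supplied 49.7% ± 0.71 of that sum in Control, 63.6% ± 0.74 in BSA and 57.1% ± 1.25 in BSA + luteolin, and Socs3 supplied 9.36% ± 1.8, 13.5% ± 1.02 and 6.79% ± 0.15. Cish alone was therefore the largest part of the summed level in each group. Over the longest transcript in place of all exons, Socs7 and not Socs6 was the lowest in Control.

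**Figure D1:**
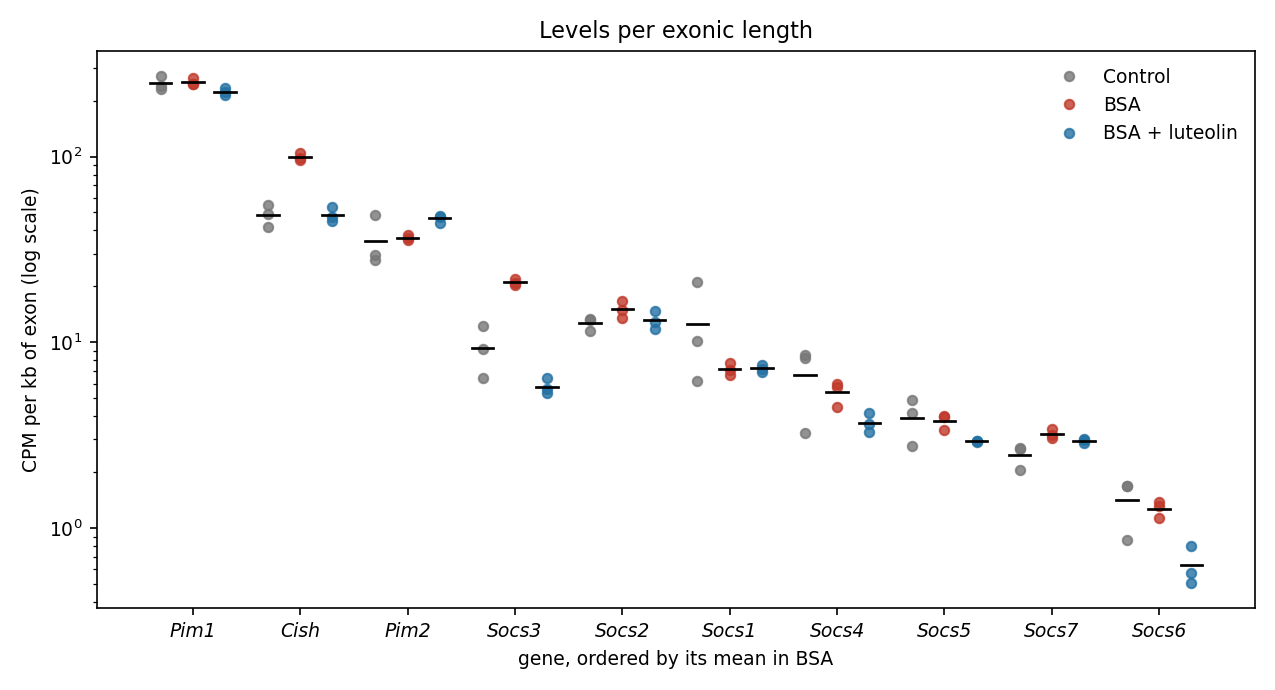
Levels of the 10 genes in CPM per kb of exon on a log axis, ordered by their mean in BSA, with 1 point per library and a bar at each group's mean. Pim1 lies highest and Socs6 lowest in every group, and Cish and Socs3 stand higher in BSA than in the other groups.

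BSA against Control asks how stimulation through the IgE receptor moved these transcripts. Cish and Socs3 rose, each by somewhat over 2-fold, and they were the 2 of the 10 genes that passed the test. In all, 3.11% of the 11560 genes tested passed it, and 2.21% did so upward. The libraries of the groups did not overlap for 4 of the 10 genes (Cish, Socs2, Socs3 and Socs7), against 28.7% of all genes. The median log2 fold change was 0.04 over the 10 and 0.02 over all genes tested.

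Cish (ENSMUSG00000032578, GRCm38 chr9:107296026-107302784, plus strand) had 352, 268 and 315 CPM in Control replicates 1, 2 and 3. It had 628, 616 and 671 CPM in BSA and 288, 305 and 342 CPM in BSA + luteolin. Every BSA library thus stood above all 6 others, while the Control and BSA + luteolin libraries overlapped. From 311.7 ± 42.4 CPM (SD, n = 3) in Control it rose to 638 ± 29.1 CPM in BSA, a log2 fold change of 1.03 (SE 0.13, 95% CI 0.74 to 1.33, adjusted p = 0.00718 by edgeR's quasi-likelihood test with Benjamini-Hochberg adjustment). It was the 238th highest of 11560. Without BSA replicate 1 or 3 the log2 fold changes were 1.04 and 0.997 and edgeR's adjusted p-values 0.0631 and 0.0627. On the opposite strand, Gm17040 and Gm17041 share 261 and 479 exonic bases with Cish. Gm17040 had 11 to 44 counts in a library, at most 0.534% of those of Cish, and Gm17041 had 0 in every library, which allows up to 0.315 CPM in the shallowest. The strand setting of the counting is not given in the sources used here.

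Socs3 (ENSMUSG00000053113, chr11:117966079-117970047, minus strand) encodes the brake best known for signalling through gp130, the shared chain of the IL-6 family receptors. It stood at 35.2, 18.6 and 26.7 CPM in Control, at 60.1, 63.5 and 58.6 CPM in BSA and at 15.5, 16.1 and 18.5 CPM in BSA + luteolin. The 3 groups did not overlap, with BSA highest and BSA + luteolin lowest. The rise from 26.8 ± 8.29 CPM (SD, n = 3) in Control to 60.8 ± 2.53 CPM in BSA was a log2 fold change of 1.17 (SE 0.22, 95% CI 0.66 to 1.68, edgeR adjusted p = 0.0375). This call was lost when any library but Control replicate 1 was left out. Leaving out Control replicate 2 or 3 gave 0.98 and 1.16 with edgeR adjusted p-values of 0.0573 and 0.139, and leaving out BSA replicate 1, 2 or 3 gave 1.18, 1.14 and 1.20 with 0.182, 0.16 and 0.166. Without Control replicate 1 it was 1.38 (adjusted p = 5.65e-07 by the same edgeR test).

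The other 8 genes did not pass the test. Socs2, a brake on growth hormone signalling that STAT5 also induces, ranged from 109.6 to 127.9 CPM in Control and from 129.5 to 158.8 CPM in BSA, without overlap, with a log2 fold change of 0.25 (95% CI -0.04 to 0.53, edgeR adjusted p = 0.305). Socs7 ranged from 14.9 to 19.6 CPM and from 22.2 to 24.7 CPM, also without overlap, at 0.38 (95% CI 0.04 to 0.72, edgeR adjusted p = 0.205). Socs1 ran from 18.0 to 61.3 CPM in Control and from 19.4 to 22.5 CPM in BSA, so that its interval was wide (log2 fold change -0.81, 95% CI -1.74 to 0.12). The intervals of Socs4, Socs5 and Socs6 spanned 0, from -1.11 to 0.50, -0.56 to 0.45 and -0.77 to 0.48. For Pim1 the log2 fold change was 0.03 (95% CI -0.23 to 0.28) and for Pim2 0.05 (95% CI -0.44 to 0.55), and the signs of these 2 values turned with library size alone or upper-quartile factors.

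Leaving out Control replicate 1 changed this comparison most. Among Control libraries it had the lowest level of Socs2, Socs4, Socs5, Socs6 and Socs7 and the highest of Cish, Socs1, Socs3, Pim1 and Pim2. Socs4, for example, stood at 22.5 CPM in that library and at 58.7 and 56.9 CPM in the other Control libraries, and Pim2 at 135.4 CPM against 77.8 and 82.9 CPM. Without it, 5 of the 10 genes passed edgeR's test between BSA and Control, as did 5297 of all genes in place of 359. Besides Cish and Socs3, these were Socs4 (log2 fold change -0.63, adjusted p = 0.00026), Socs6 (-0.41, adjusted p = 0.0138) and Pim2 (0.35, adjusted p = 0.00108, all by edgeR's quasi-likelihood test). With the neutrophil markers at 19.5 to 20 CPM in these 2 Control libraries and at 135 to 147 CPM in BSA, the marker levels moved with this comparison too. Mcpt8 also rose, from 21.8 and 18.7 CPM to 292 to 330 CPM, and Prg2 from 0.1 and 0 CPM to 13.6 to 18.1 CPM. Cd200r3 moved the other way, from 1045 and 1023 CPM to 616 to 655 CPM. The part of these markers in the comparison was not tested.

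**Figure D2:**
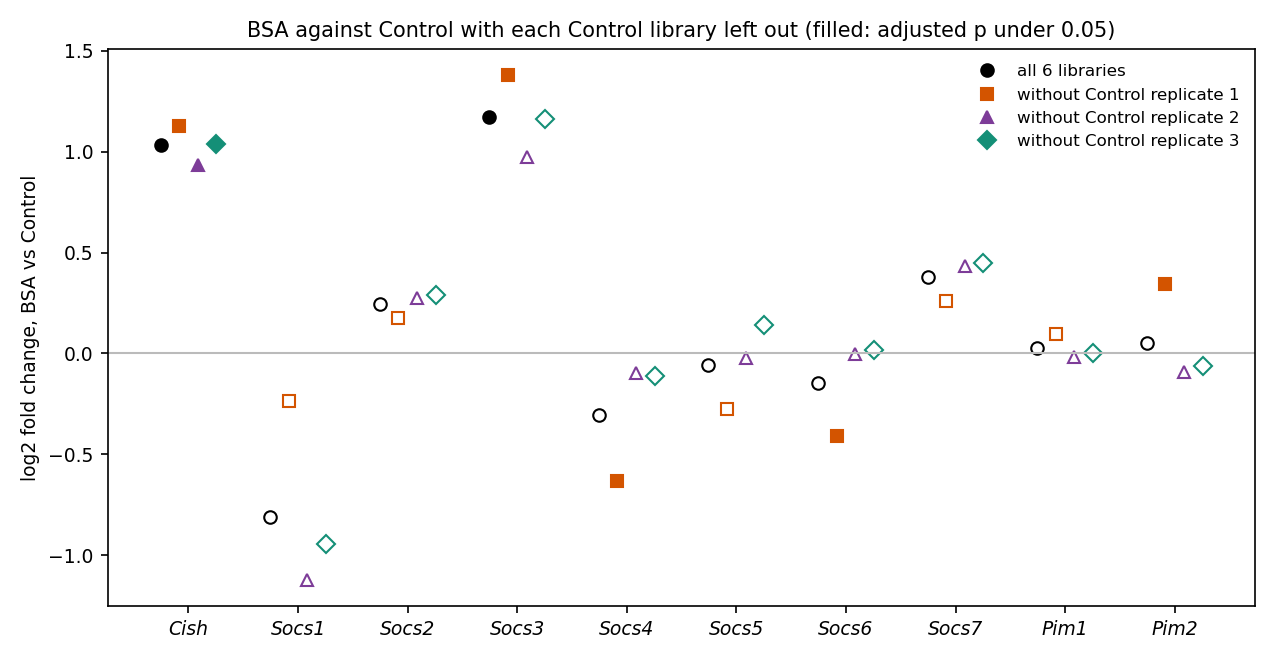
The log2 fold changes of the 10 genes between BSA and Control with all 6 libraries and with each Control library left out, filled where edgeR's adjusted p was under 0.05. Cish is filled in all 4 settings and lies between 0.94 and 1.13, Socs3 lies between 0.98 and 1.38, and Socs4, Socs6 and Pim2 are filled only without Control replicate 1.

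BSA + luteolin against BSA asks how the transcripts of stimulated cells differed when luteolin was present. Most of the brakes were lower with luteolin. Of the 8 CIS/SOCS genes, 5 fell (Cish, Socs3, Socs4, Socs5 and Socs6) and 3 did not pass the test, while of the PIM genes Pim1 fell slightly and Pim2 rose. Thus 7 of the 10 passed, against 40.0% of all genes tested, and 6 of the 10 fell, against 22.2%. Groups did not overlap for 8 of the 10, against 50.3% of all genes. The median log2 fold change was -0.28 over the 10 and 0.01 over all genes tested. This comparison shares its BSA libraries with the one before. Markers of cell types moved with it too. Of the mast cell markers 7 of 11 rose and 2 fell, and 3 of 4 basophil and 3 of 6 neutrophil markers rose, against 17.8% of all genes, while 2 of 5 tested macrophage markers (Cd14 and Cd163) and 1 of 4 eosinophil markers (Siglecf) fell, against 22.2%. Their part in the falls of the CIS/SOCS genes and the rise of Pim2 was not tested.

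Socs3 had the most pronounced fall, to 16.7 ± 1.6 CPM (SD, n = 3), a log2 fold change of -1.86 (SE 0.08, 95% CI -2.04 to -1.69, adjusted p = 1.2e-11 by edgeR's quasi-likelihood test) or a level 3.64-fold lower. Its log2 fold change was the 214th lowest of 11560. Cish fell to 311.5 ± 27.5 CPM (SD, n = 3), with a log2 fold change of -1.04 (SE 0.06, 95% CI -1.17 to -0.90, edgeR adjusted p = 1.1e-09). In each of the 15 alternative analyses both genes passed, with values from -1.94 to -1.75 for Socs3 and from -1.11 to -0.92 for Cish.

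Socs6 (ENSMUSG00000056153, chromosome 18, minus strand), which has been linked to signalling by KIT and other receptor tyrosine kinases, was the third to reach about 2-fold. Its levels were 15.6, 12.8 and 14.9 CPM in BSA and 5.78, 6.52 and 9.14 CPM in BSA + luteolin, with 9.73, 19.2 and 19.2 CPM in Control. No luteolin library reached the lowest BSA library, and the log2 fold change was -1.02 (SE 0.16, 95% CI -1.36 to -0.68, edgeR adjusted p = 9.71e-05). It passed in each of the 15 alternatives. These are the lowest counts among the 10 genes, 907 summed over BSA and 474 with luteolin.

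Socs4 and Socs5 encode a closely related pair with long N-terminal regions, best known for restraining EGF receptor signalling. Socs4 (ENSMUSG00000048379, chr14:47276931-47296102, plus strand) had 41.1, 31.0 and 39.4 CPM in BSA and 25.0, 22.7 and 28.6 CPM with luteolin, at a log2 fold change of -0.55 (SE 0.11, 95% CI -0.78 to -0.32, edgeR adjusted p = 0.000818). Socs5 (ENSMUSG00000037104, chr17:87107679-87137839, plus strand) had 25.7, 21.7 and 25.4 CPM in BSA and 18.8, 18.9 and 18.7 CPM with luteolin (log2 fold change -0.37, SE 0.09, 95% CI -0.57 to -0.17, edgeR adjusted p = 0.00548). Neither pair of groups overlapped. Both genes passed in 14 of the 15 alternatives and missed the threshold when the Control libraries shared the fit, with edgeR adjusted p-values of 0.305 and 0.262.

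Socs1, Socs2 and Socs7 did not pass. Socs1 (ENSMUSG00000038037, chr16:10782240-10785536, minus strand), the main brake on interferon signalling, had 20.8 ± 1.54 CPM (SD, n = 3) in BSA and 21.0 ± 0.89 CPM in BSA + luteolin. Its log2 fold change of 0.02 has a 95% interval from -0.18 to 0.21, which does not reach the falls of Cish, Socs3 or Socs6. Socs2 (ENSMUSG00000020027, chr10:95385362-95417180, minus strand) had 143.7 ± 14.7 and 125.6 ± 14.5 CPM (SD, n = 3), with overlapping libraries and a log2 fold change of -0.20 (95% CI -0.37 to -0.02, edgeR adjusted p = 0.0683). It passed in 4 of the 15 alternatives, namely without a filter on low values (-0.17, adjusted p = 0.0463), with the replicate number as a block (-0.20, adjusted p = 0.00129), without BSA replicate 2 (-0.26, adjusted p = 0.0131) and without BSA + luteolin replicate 3 (-0.29, adjusted p = 0.0044 by edgeR). Socs7 (ENSMUSG00000038485, chr11:97362551-97398542, plus strand) had 23.3 ± 1.3 and 21.5 ± 0.56 CPM (SD, n = 3), and its libraries did not overlap, but its log2 fold change of -0.12 (95% CI -0.30 to 0.07) gave an edgeR adjusted p of 0.302.

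The PIM genes moved in opposite directions. Pim1 (ENSMUSG00000024014, chr17:29490753-29496112, plus strand) had 824, 885 and 831 CPM in BSA and 790.1, 723 and 745 CPM in BSA + luteolin, with 912, 780.1 and 804 CPM in Control. Its fall was small, with a log2 fold change of -0.17 (SE 0.05, 95% CI -0.28 to -0.05, edgeR adjusted p = 0.0208), and 9 of the 15 alternatives kept it past the threshold. It missed with upper-quartile factors (-0.09, adjusted p = 0.198), with library size alone (-0.05, adjusted p = 0.405), without a filter on low values (-0.14, adjusted p = 0.058), with all 9 libraries in the fit (-0.17, adjusted p = 0.279), without BSA replicate 2 (-0.14, adjusted p = 0.0549) and without BSA + luteolin replicate 2 (-0.14, adjusted p = 0.119 by edgeR). Pim2 (ENSMUSG00000031155, chrX:7878262-7883432, plus strand) had 99.9, 105.8 and 101.5 CPM in BSA and 133.7, 132.7 and 122.9 CPM in BSA + luteolin. Every luteolin library was above every BSA library, at a log2 fold change of 0.34 (SE 0.06, 95% CI 0.22 to 0.46, edgeR adjusted p = 0.000215). Pim2 passed in 14 of the 15 alternatives, and with the Control libraries in the fit its edgeR adjusted p was 0.288. Gm26885, on the strand opposite to Pim1 and sharing 488 exonic bases with it, had 1 to 19 counts, at most 0.0974% of those of Pim1.

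**Figure D3:**
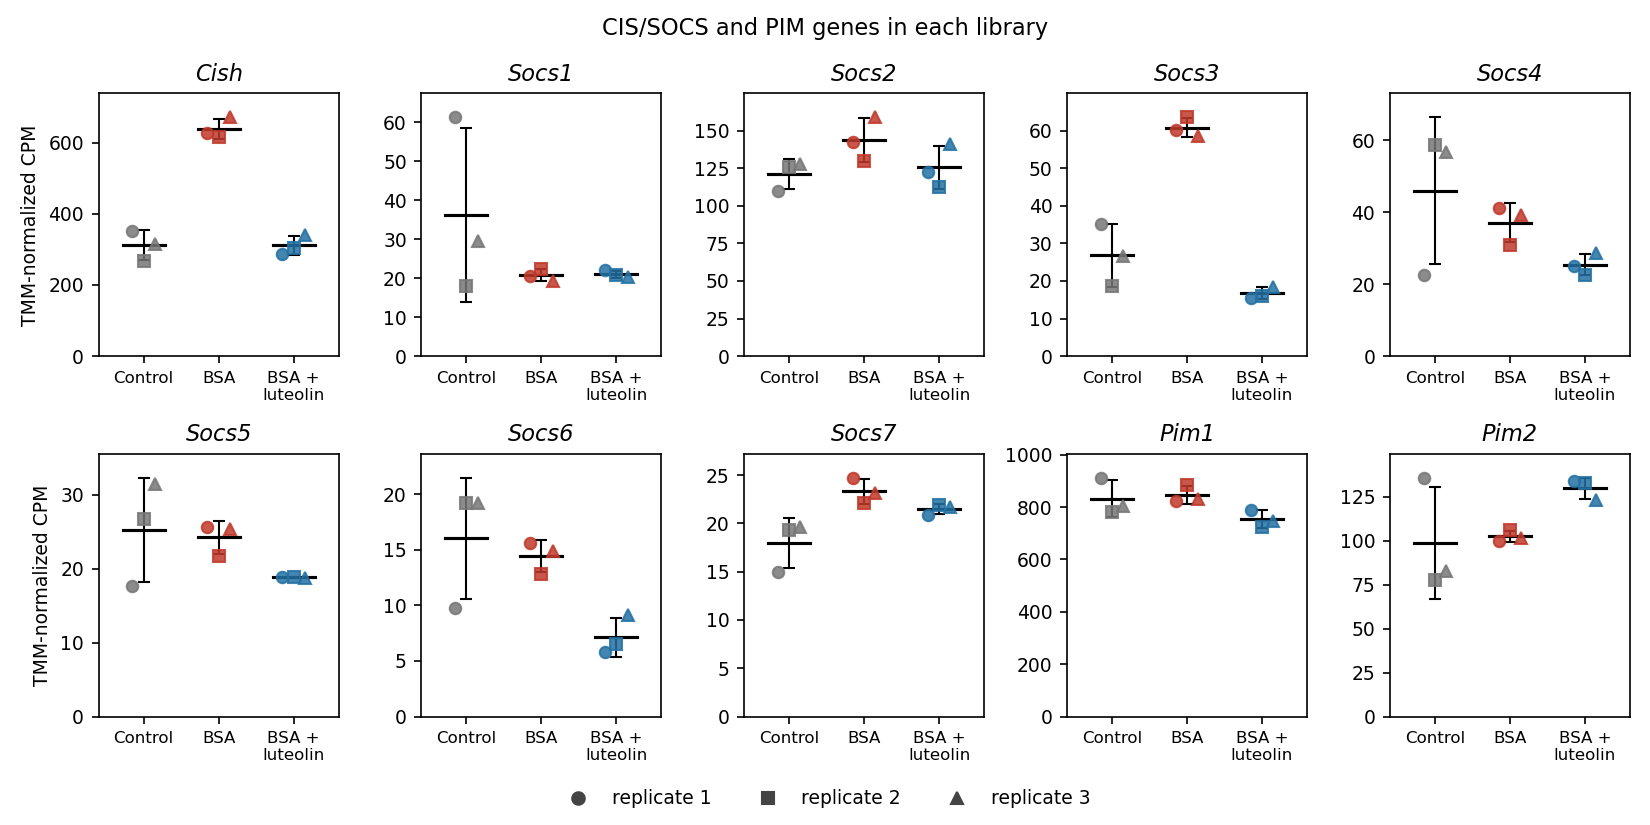
TMM-normalized CPM of the 10 genes in each of the 9 libraries, with axes from 0, marker shapes for the replicate numbers and a bar with whiskers for the mean and SD of each group. Cish and Socs3 are high in the 3 BSA libraries only, Socs6 is lowest in BSA + luteolin, and Control replicate 1 (circles) lies apart from the other Control libraries for Socs1, Socs4, Socs5, Socs6 and Pim2.

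BSA + luteolin against Control shows where the transcripts stood relative to unstimulated cells. None of the 10 genes passed edgeR's quasi-likelihood test, against 3.04% of all genes tested, while 3 had an unadjusted p under 0.05 (Socs3, Socs4 and Socs6), as did 2636 of the 11560 genes. DESeq2 called 1 (Socs6) and 1379 of all genes, and limma called 0 and 327. The groups did not overlap for 3 of the 10 (Socs3, Socs6 and Socs7), against 28.5% of all genes. The median log2 fold change was -0.28 over the 10 and 0.01 over all genes. This comparison shares libraries with each of the others.

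Cish stood at nearly the same mean in both groups, 311.5 and 311.7 CPM, and its log2 fold change of 0.00 has a 95% interval from -0.31 to 0.31. For Socs3 the BSA + luteolin libraries lay below all Control libraries (log2 fold change -0.69, 95% CI -1.23 to -0.15, edgeR adjusted p = 0.146). Socs6 lay lower still relative to Control (-1.16, 95% CI -1.88 to -0.44, edgeR adjusted p = 0.0912). The values of Socs4 and Socs5 were -0.85 and -0.43, that of Pim1 -0.14 and that of Pim2 0.39. Without Control replicate 1, 5 of the 10 genes and 6939 of all genes passed edgeR's test. The 5 were Socs3 (-0.47, adjusted p = 0.00783), Socs4 (-1.18, adjusted p = 4.59e-08), Socs5 (-0.64, adjusted p = 6.61e-05), Socs6 (-1.43, adjusted p = 2.09e-06) and Pim2 (0.69, adjusted p = 8.12e-07 by the same test). Cish was then at 0.09 (adjusted p = 0.351).

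**Figure D4:**
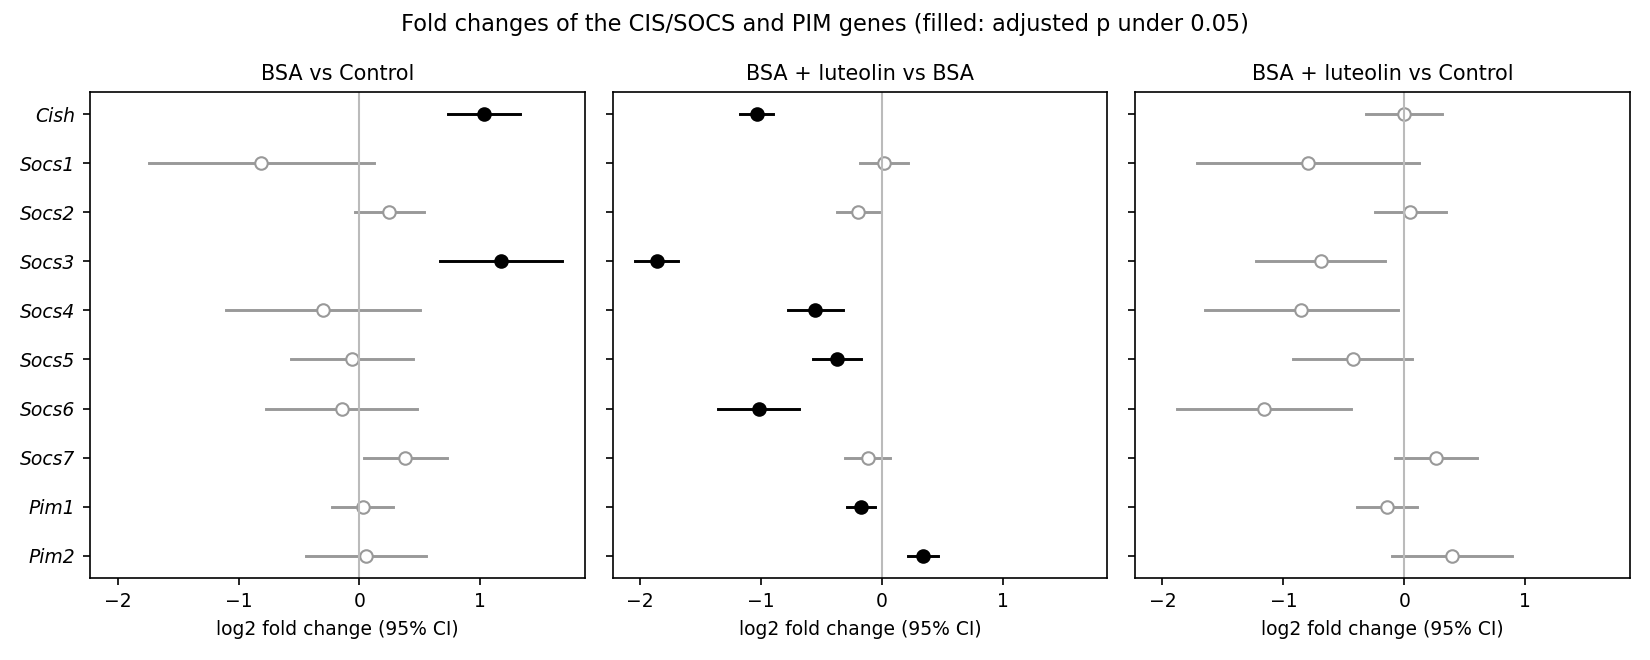
Log2 fold changes of the 10 genes with 95% confidence intervals in the 3 comparisons, each from the 6 libraries compared, filled where edgeR's adjusted p was under 0.05. Cish and Socs3 are filled to the right in BSA against Control, 6 genes are filled to the left and Pim2 to the right in BSA + luteolin against BSA, and none is filled in BSA + luteolin against Control.

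Across the 9 libraries the levels formed sets that moved side by side. These correlations of log2 CPM are descriptions, since the libraries share the 3 groups and Control replicate 1. Cish and Socs3 had r = 0.94. Socs4 and Socs5 had r = 0.95, Socs4 and Socs6 r = 0.90, and Socs5 and Socs6 r = 0.88. Pim2 ran opposite to these 3, with r = -0.98, -0.93 and -0.92, while Pim1 and Pim2 had r = -0.02. Of 11559 other genes, those most like Cish were Lif (r = 0.99), a cytokine of the IL-6 family, and Dusp4 (r = 0.99), a phosphatase of MAP kinases. Those most like Socs3 were Actg1 (r = 0.99), a cytoplasmic actin, and Zfp36 (r = 0.99), which promotes decay of cytokine mRNAs. Socs4 was nearest to Elk4 (r = 0.99) and Dennd4a (r = 0.98), Socs5 to Serac1 (r = 0.99) and Insr (r = 0.98), and Socs6 to Rlf (r = 0.99) and Rprd2 (r = 0.99). Pim2 was nearest to Pla2g7 and Idh2 (both r = 0.99), Pim1 to Jmjd6 (r = 0.97) and Actb (r = 0.93), Socs1 to Mzt2 and Tmem51 (both r = 0.97), Socs2 to Ppp2r3a (r = 0.99) and Rasa2 (r = 0.95), and Socs7 to Papola (r = 0.99) and Ikzf1 (r = 0.98).

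The rest of the pathway was read from 8 lists with 82 genes, of which 73 passed the filter on low values. Between BSA + luteolin and BSA, 14 genes rose and 26 fell by edgeR's quasi-likelihood test, against 17.8% and 22.2% of all genes. The ligands fell most. Of 7 tested ligands 6 were lower, led by Csf2, which encodes GM-CSF, from 58.0 to 4.14 mean CPM (log2 fold change -3.81, edgeR adjusted p = 1.13e-14), and Lif, from 2515 to 450.0 mean CPM (-2.48, edgeR adjusted p = 4.62e-14). Of 15 tested receptor chains 2 rose and 4 fell. The largest changes were those of Il10ra, the IL-10-binding chain (-1.28, edgeR adjusted p = 1.02e-11), and Csf2ra, the GM-CSF-binding chain (-0.40, adjusted p = 0.00576), against Il10rb (0.50, adjusted p = 0.00213) and Ifngr2 (0.40, adjusted p = 0.00435). The kinases and factors between receptor and target moved less. Jak1 fell (log2 fold change -0.34, edgeR adjusted p = 0.000224), while Jak2, Jak3 and Tyk2 were at -0.02, -0.13 and -0.13 and did not pass. Stat5a rose (0.23, adjusted p = 0.0137) and Stat3 fell (-0.19, adjusted p = 0.0147, both by edgeR). Stat5b, the other STAT5 gene, was at 0.03, and Stat2, Stat4 and Stat6 at -0.08, 0.16 and 0.03 did not pass either.

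The counts of the following lists stand against 17.8% of all genes higher and 22.2% lower. Of 8 partners of the SOCS box 4 rose, with Nedd8, whose product activates cullins (log2 fold change 0.42, edgeR adjusted p = 0.000242), and Elob, which encodes Elongin B (0.30, adjusted p = 0.00511), at the top, and the other 4 did not pass. Among 12 other brakes, 2 rose and 3 fell, shares near those of all genes. Pias4 (0.42, adjusted p = 0.00119) and Pias3 (0.31, adjusted p = 0.00636), SUMO ligases that inhibit STAT factors, rose by edgeR's test, while Sh2b3, an adaptor that restrains JAK2 and KIT (-0.56, adjusted p = 4.91e-06), and Cbl, a ubiquitin ligase of receptor kinases (-0.47, adjusted p = 0.000414), fell. Of 12 further STAT5 targets 9 fell and 1 rose. Bcl6, a transcriptional repressor that STAT5 is known to repress rather than induce, fell from 15.4 to 3.03 mean CPM (-2.34, edgeR adjusted p = 2.68e-08), and Osm, an IL-6 family cytokine that also stands among the ligands, from 854 to 254.2 mean CPM (-1.75, edgeR adjusted p = 3.33e-12). Ccnd3, a cyclin of the early cell cycle, rose (0.30, edgeR adjusted p = 0.00121). Pim3, the remaining PIM kinase, named here after its values were seen, fell (-0.78, edgeR adjusted p = 4.36e-08), so that the PIM kinases differed in direction. Pim3 had 242.2, 52.2 and 58.0 CPM in Control replicates 1, 2 and 3 and 225 to 249.3 CPM in BSA. It did not pass between BSA and Control (log2 fold change 1.03, 95% CI -0.28 to 2.34, edgeR adjusted p = 0.353). Of 9 PIM substrates 3 rose and 3 fell. Bad, a promoter of apoptosis (0.54, adjusted p = 0.000193), and Cdc25a, a cell cycle phosphatase (0.42, adjusted p = 0.00117), rose, and the cyclin-dependent kinase inhibitor genes Cdkn1a (-1.14, adjusted p = 1.18e-11) and Cdkn1b (-0.42, adjusted p = 0.00145 by edgeR) fell.

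**Figure D5:**
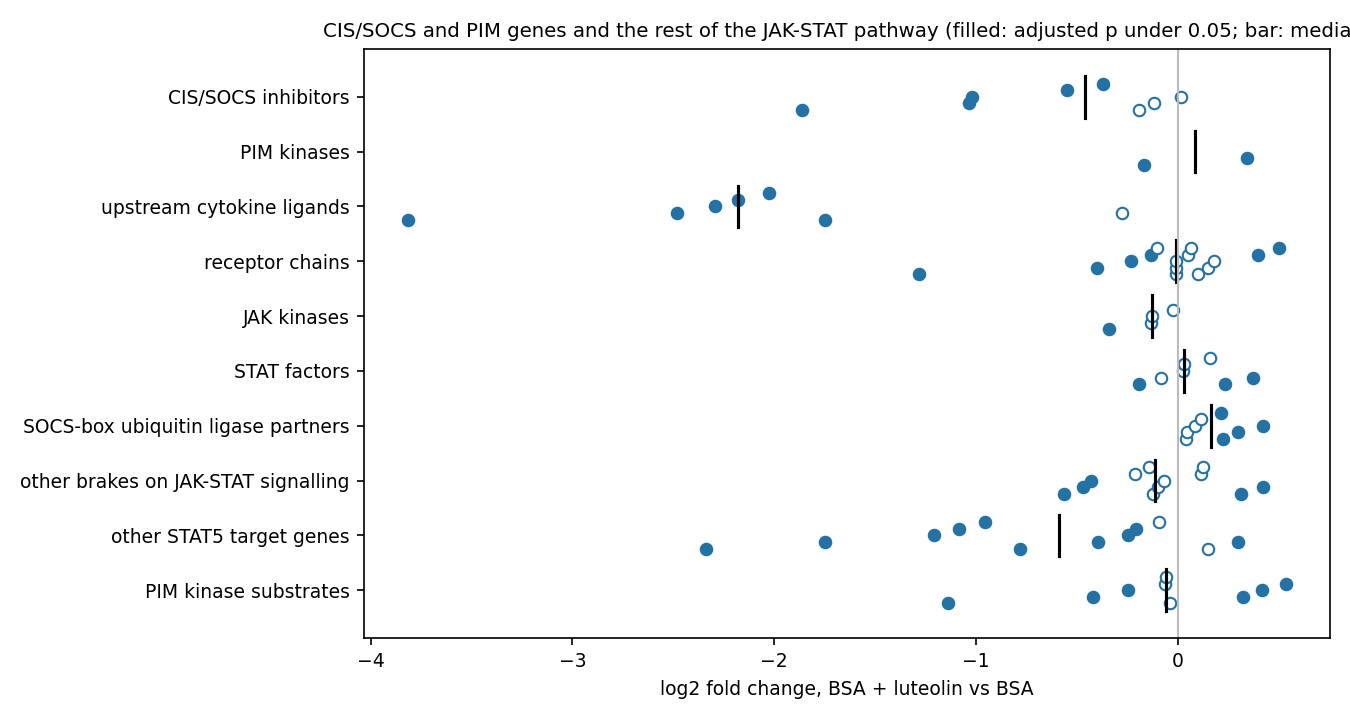
Log2 fold changes between BSA + luteolin and BSA of the CIS/SOCS genes, the PIM genes and 8 other lists of the pathway, 1 point per tested gene, filled where edgeR's adjusted p was under 0.05, with a bar at each median. The ligands and the other STAT5 targets reach furthest to the left, the JAK, STAT and SOCS-box partner genes stay within 0.5 of 0, and no CIS/SOCS gene is filled to the right.

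Relative to Control, far fewer genes of the lists passed. Between BSA and Control 6 rose by edgeR's test, against 2.21% of all genes upward. Named because they passed, these were the ligands Csf2 (log2 fold change 5.15), Il13 (3.76), Il6 (2.65), Lif (2.41) and Il4 (1.78), and the kinase inhibitor gene Cdkn1a (0.88). Csf2 had only 88, 1 and 3 counts in Control replicates 1, 2 and 3 (95% CI 3.004 to 7.302). Among Control libraries, replicate 1 was highest for each of these 6 genes, as for Cish and Socs3. Lif, for example, had 688.9 CPM there and 324.8 and 403.5 CPM in replicates 2 and 3. For all 6 every BSA library still stood above every Control library. The JAK genes were at log2 fold changes of 0.47 (Jak1), 0.05 (Jak2), 0.04 (Jak3) and 0.01 (Tyk2). Stat5a and Stat5b were at -0.13 and 0.04. Between BSA + luteolin and Control 6 genes fell, against 2.76% of all genes. They were Bcl6 (log2 fold change -2.64), Cdkn1b (-1.48), Id1 (-1.45), Myc (-0.85), Il10ra (-0.72) and Mcl1 (-0.72), named for the same reason. Without Control replicate 1 the counts were 39 and 56 of the 73 tested, when 5297 and 6939 of the 11560 genes passed. The second count was 0 when any of the other 5 libraries was left out.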

How the data were processed

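RNA of 9 BMMC libraries (3 per group, grouped by their labels) was sequenced from stranded mRNA libraries. Per the labels and methods, the authors filtered the reads, used STAR 2.7.0f with mm10 for the alignment, and deposited unnormalized counts for each Ensembl gene. The annotation release, strand setting and handling of multiply mapped reads are not given in the sources used here. The tools were DESeq2 1.42.0, limma 3.58.1 and edgeR 4.0.16, run in R 4.3.3. CPM values are TMM-normalized. The 11560 genes with a median CPM above 1 over all 9 libraries entered edgeR's two-sided quasi-likelihood test. Each comparison had its own fit of 6 libraries, Benjamini-Hochberg adjusted, and genes with an adjusted p under 0.05 passed. Symbols, coordinates and exonic lengths are from GENCODE for GRCm38, which matched 47224 of 47643 IDs, and promoter windows are from RefSeq. The fit of BSA + luteolin against BSA was also tested on simulated data in which 200 of 11464 genes changed 2-fold. It recovered 92% of these, and 5.15% of its calls were false. Many more genes, 4622 of 11560, passed in the real data, and smaller changes were not simulated. Replicate pairs differed by a chi-square of at least 4.05 per degree of freedom, so none was counted as a duplicate.

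The genes and lists were chosen with earlier results of these data known. All 10 CIS/SOCS and PIM genes are named. From each pathway list, at most the 2 largest rises and 2 largest falls past the threshold between BSA + luteolin and BSA are named, and JAK and STAT genes may be named whatever their values. An item of the lists is not reported here. For each of the 10 genes the 2 genes with the highest Pearson r of log2 CPM (prior count 2) are named. Alternatives covered the test, scaling, filter, libraries in the fit, replicate block, gene length and each replicate left out.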

Additional observations from a re-analysis of the deposited data

How the results depend on the processing

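Between BSA + luteolin and BSA, 7 of the 10 genes, 40 pathway genes and 4622 of 11560 genes passed. With all 9 libraries in 1 fit these were 3 (Cish, Socs3 and Socs6), 15 and 1093. With a replicate left out they ran from 6 to 8, 33 to 43 and 3266 to 5071. Between BSA and Control, 2, 6 and 359 passed, and with a replicate left out 0 to 5, 4 to 39 and 90 to 5297. The pathway count was 15 by DESeq2 (1227 of all genes), 11 without a filter (606 of 22584) and 15 with all 9 libraries (1105). Between BSA + luteolin and Control, 0, 6 and 352 passed, and with a replicate left out 0 to 5, 0 to 56 and 2 to 6939. By DESeq2 there were 1, 11 and 1379, with all 9 libraries 2, 11 and 1251, and without a filter 1 of the 10 genes and 799 of 22233. Beyond the libraries left out or added, the cause of these moves was not tested.

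Same-numbered libraries did not pair in every case. Their deviations had r = -0.02, 0.17 and 0.28 for BSA + luteolin against BSA, -0.04, -0.26 and 0.24 for BSA against Control, and 0.17, -0.12 and 0.31 for BSA + luteolin against Control, and not every library correlated best with its own number. Replicate 3 did so in each comparison. Deviations from a mean of 3 libraries sum to 0, so these values cannot exclude pairing. With the replicate block 8, 1 and 0 of the 10 genes passed in these comparisons, Socs3 having an edgeR adjusted p of 0.0683 between BSA and Control and Socs2 0.00129 between BSA + luteolin and BSA. Pathway counts with the block were 50, 5 and 3, and those over all genes 5568, 146 and 221.

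Signs turned only for values that had not passed. Socs1 between BSA + luteolin and BSA ran from -0.03 to 0.075 with a replicate left out. Between BSA and Control, Pim1 was -0.014 by DESeq2, -0.079 with upper-quartile factors and -0.149 with library size alone, and Pim2 -0.051 and -0.113 with these 2 scalings. With a replicate left out, Pim1 ran from -0.019 to 0.096, Pim2 from -0.092 to 0.346, Socs5 from -0.274 to 0.141 and Socs6 from -0.408 to 0.017. Between BSA + luteolin and Control, Cish was 0.005 by limma, 0.061 without a filter, 0.004 with a mean filter, 0.005 with the replicate block and -0.099 to 0.094 with a replicate left out. Socs2 was -0.011 with library size alone and -0.041 to 0.124 with a replicate left out. Over the longest transcript, levels in Control were 66.4 CPM per kb for Cish, 28.6 for Socs2, 5.43 for Socs5, 2.65 for Socs6, 308 for Pim1 and 48.3 for Pim2.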
